A study of Mus musculus with 6 samples.

Results

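The actins and tropomyosins of newborn quadriceps muscle were compared between 3 mice lacking Klhl40 (KO 1 to KO 3) and 3 wild-type mice (WT 1 to WT 3). The genes were chosen by name as Acta1, Actc1, Actb, Actg1, Tpm1, Tpm2, Tpm3 and Tpm4, and every bead array probe annotated to 1 of these symbols was taken. This gave 23 of 45281 probes, which cover 7 of the 8 genes, since no probe in the annotation used here carried Actg1. Of the 23, 22 were detected well enough to be tested, among 19099 tested probes in all. All mice were of the C57BL/6 strain and 0 days old, each KO was collected with a WT littermate, and total RNA of the whole muscle was hybridised with 1 array per mouse. The labels used here do not state the targeting construct or whether Klhl40 was removed in muscle alone.

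Actin filaments form the thin filaments of the sarcomere, on which myosin pulls, and tropomyosin lies along each filament and, with troponin, gates myosin's access to it. Skeletal muscle makes the skeletal actin of Acta1 and, while it is immature, the cardiac actin of Actc1, whereas Actb and Actg1 encode the cytoplasmic actins that all cells use. Tpm1 and Tpm2 supply the alpha and beta tropomyosins of fast and slow fibres, Tpm3 supplies the slow fibre tropomyosin and also cytoplasmic forms, and Tpm4 encodes a tropomyosin of the cytoskeleton. Klhl40 is a kelch protein of striated muscle, and in humans mutations of KLHL40, ACTA1, TPM2 and TPM3 each cause nemaline myopathy, a weakness with rods in the muscle fibres.

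Levels are given as bead intensity on the scanner's linear scale (raw scale) or as log2 normalised intensity, and differences are KO minus WT on the log2 normalised scale unless stated. The brightness of a probe depends on its own hybridisation, so that levels of different probes are not compared. The knockout was seen in the Klhl40 probe, which averaged 10.72 ± 0.08 across WT and 4.99 ± 0.66 across KO arrays (SD, n = 3 each) and differed by -5.73 (limma adjusted p = 0.000875). It was detected on 3 of 3 WT and 1 of 3 KO arrays, so that the KO level lay near background, which limits the size of the difference that can be read. Of 13 genes listed to check for skeletal muscle, 12 were measured, and the exception was Myh3, the embryonic myosin heavy chain. Each array detected 18373 to 19189 probes. WT 3 stood apart on the first principal component, which held 42.8% of the variance, at 37.4 against -17.1 to 10.7 for the other arrays, and its adipocyte markers deviated by a median of 1.31 from their 6-array mean, where the remaining arrays had -0.49 to 0.028. In whole muscle, fewer cells of a type and less RNA per cell cannot be told apart.

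No actin or tropomyosin probe passed the test over all probes. By limma, 0 of the 22 tested probes had an adjusted p under 0.05, where 0.152% of all tested probes did, and 6 of the 22 had an unadjusted p under 0.05, where 7.01% of all did. Of those 6, 5 were higher in KO and 1 lower, against 3.92% and 3.09% of all tested probes. Over all probes, 23 (0.120%) were higher and 6 (0.0314%) lower in KO. Without WT 1, WT 2, KO 1, KO 2 or KO 3 those higher numbered 2, 8, 2, 2 and 5 and those lower 1 each time, and without WT 3 there were 17 and 10. The smallest adjusted p among the 22 was 0.306, for a Tpm3 probe. The 22 differences had a median of 0.020, against 0.0017 over all probes tested, and 12 were above 0 and 10 below, where 50.4% of all were above 0. The KO values lay wholly above the WT values for 5 probes, all of Tpm3, where this held for 7.25% of all tested probes, and wholly below for 5 probes of Actc1, Actb, Tpm1 and Tpm4, where it held for 6.07%. The 5 Tpm3 probes are also the 5 higher ones by unadjusted p. They read 1 gene in the same mice and are not separate results. On the raw scale 4 lay wholly above and 6 wholly below, where 4.45% and 8.06% of all did.

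**Figure D1:**
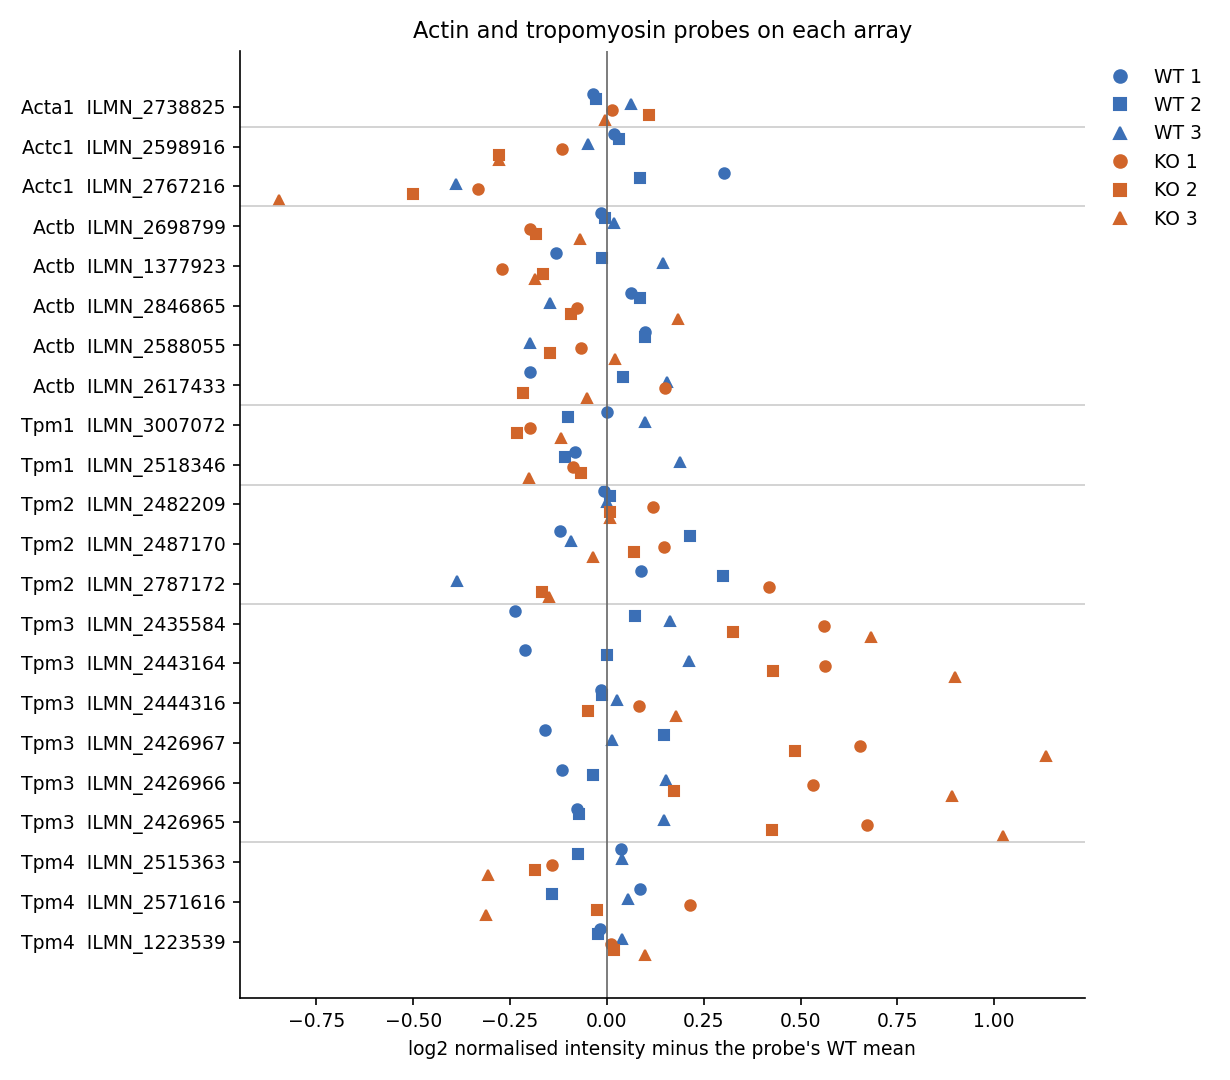
Each row is 1 probe, named by gene and probe, and each point is 1 array, plotted as its log2 normalised intensity minus the mean of the 3 WT arrays for that probe, with WT in blue and KO in orange and the marker shape giving the replicate number. In 5 of the 6 Tpm3 rows all KO points lie to the right of all WT points, and the bright Actc1 probe, both bright Actb probes, and 1 probe each of Tpm1 and Tpm4 have all KO points to the left.

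The sarcomeric actins are shown with the sequence around their start sites, because Acta1 and Actc1 encode nearly the same protein and share promoter motifs. The windows hold 300 bases around the start annotated by RefSeq on build GRCm38.p6, on the minus strand at chr8:123894726-123895025 for Acta1 and chr2:114052826-114053125 for Actc1. Capitals mark matches to the CArG box, the site that serum response factor is known to bind, and to TATAAA, both searched on both strands.
Acta1: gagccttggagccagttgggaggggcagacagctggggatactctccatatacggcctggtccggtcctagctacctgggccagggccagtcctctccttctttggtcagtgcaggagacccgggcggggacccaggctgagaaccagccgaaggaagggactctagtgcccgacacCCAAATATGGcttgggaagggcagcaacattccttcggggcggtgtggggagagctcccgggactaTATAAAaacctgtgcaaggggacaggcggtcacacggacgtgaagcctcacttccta
Actc1: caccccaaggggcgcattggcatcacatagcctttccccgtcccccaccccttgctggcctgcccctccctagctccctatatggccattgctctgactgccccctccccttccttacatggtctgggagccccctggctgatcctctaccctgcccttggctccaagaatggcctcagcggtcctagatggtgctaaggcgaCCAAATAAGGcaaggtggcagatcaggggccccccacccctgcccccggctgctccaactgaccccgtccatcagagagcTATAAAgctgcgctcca
The CArG box lay at bases 178 to 187 of the Acta1 window and 204 to 213 of the Actc1 window, and TATAAA at bases 244 to 249 and 284 to 289, with no overlap. Counted from the annotated start, the CArG box began at -73 in Acta1 and -47 in Actc1. TATAAA began at -7 in Acta1 and at 33 in Actc1, which is past the annotated start. A CArG box was found in all 3 actin windows of the table, that of Actg1 at bases 161 to 170 included, and in none of the 5 tropomyosin windows. Of all 32851 windows of 300 bases, 1.63% held a CArG box and 13.6% held TATAAA on either strand. These are matches of letters, and binding was not measured.

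Acta1, the main actin of mature skeletal muscle, was measured by 1 probe, ILMN_2738825. Its raw intensity was 28661, 28428 and 30625 on WT 1 to WT 3 and 29268, 30767 and 28885 on KO 1 to KO 3. The groups overlapped, with WT 3 above 2 of the KO arrays. On the normalised scale the WT arrays averaged 14.82 ± 0.05 and the KO arrays 14.86 ± 0.06 (SD, n = 3 each). The difference of 0.038 (SE 0.10, limma adjusted p = 0.972) had a 95% interval of -0.18 to 0.26. A shift within that interval was not excluded. This probe ranked 25 in mean raw brightness, where quantile normalisation can hold a difference near 0, and the raw means of 29238 ± 1207 and 29640 ± 994 (SD, n = 3 each) differed by 1.38%.

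Actc1, the cardiac actin, is the form that immature skeletal muscle shares with the heart, and both of its probes were lower in KO without passing the test. The brighter probe, ILMN_2598916, had raw intensities of 25716, 26421 and 24029 in WT and 23570, 21269 and 21355 in KO. Every KO array lay below every WT array. Its difference was -0.22 (SE 0.10, limma adjusted p = 0.724), with a 95% interval of -0.45 to 0.01, and the raw means differed by -13.1%. The dimmer probe, ILMN_2767216, had 4165, 3746 and 2699 in WT and 2763, 2353 and 1991 in KO on the raw scale. Here WT 3 lay just below KO 1, so that the groups overlapped. Its difference was -0.56 (SE 0.20, limma adjusted p = 0.607, unadjusted p = 0.0248), with a 95% interval of -1.03 to -0.09, and -33.0% between the raw means.

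Within pairs of the same replicate number, taken here as littermates, the dimmer Actc1 probe differed by -0.63, -0.59 and -0.46 and the brighter one by -0.13, -0.31 and -0.23. Thus KO was lower in 3 of 3 pairs for both, as held for 6 of the 22 probes and for 15.7% of all tested probes. The 2 Actc1 probes correlated by 0.88 over the 6 arrays, and the dimmer one shifted by -0.34 (SE 0.18) more than the brighter one, which did not pass (limma adjusted p = 0.999 over 5644 pairs of probes of the same gene). The bright Actc1 probe measured against the Acta1 probe on the same array gave a shift of -0.26, with no overlap between the groups (exact permutation test, two-sided, p = 0.1, and 0.12 adjusted over 6 gene pairs). With 3 arrays against 3 this p of 0.1 is the smallest possible. No overlap held for 13.9% of all gene pairs, and here KO 1 at -0.305 lay just below WT 3 at -0.291. With the mean of both Actc1 probes the shift was -0.43. Among 6 measured genes of embryonic and fetal muscle other than Actc1, 0 passed, 1 had a positive difference, and the median was -0.0040 (-0.043 without WT 3). Myl6b, a myosin light chain, had 0.80 (limma adjusted p = 0.251) and Chrng, the fetal acetylcholine receptor subunit, -0.22 (adjusted p = 0.776).

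Actb, the cytoplasmic beta actin often taken as a reference gene, was measured by 5 probes with differences of -0.21 to 0.0045. The brightest, ILMN_2698799, had raw intensities of 13016, 13428 and 12817 in WT and 11887, 11390 and 12518 in KO. The next, ILMN_1377923, had 9855, 10895 and 11325 in WT and 9186, 9497 and 9660 in KO. In both, all KO arrays lay below all WT arrays. Their differences were -0.15 (SE 0.10, limma adjusted p = 0.832) and -0.21 (SE 0.11, adjusted p = 0.776), and the raw means differed by -8.83% and -11.6%. Without WT 3 the second was -0.13. In the 3 dimmer probes the groups overlapped. ILMN_2846865 had a difference of 0.0045, with 10.73, 10.75 and 10.52 in WT and 10.59, 10.57 and 10.85 in KO. ILMN_2588055 had a difference of -0.064, with 10.50, 10.50 and 10.21 in WT and 10.34, 10.26 and 10.43 in KO. ILMN_2617433 had a difference of -0.039, with raw intensities of 1109, 1326 and 1457 in WT and 1397, 1053 and 1259 in KO.

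The 10 correlations between Actb probes over the 6 arrays ran from -0.31 to 0.84. The bright pair went together (0.78) and so did ILMN_2846865 and ILMN_2588055 (0.84), and no correlation between these sets exceeded 0.32. Measured against the brightest, the 4 dimmer probes shifted by -0.057 to 0.15, with a limma adjusted p of 0.999 for each. In that measure ILMN_2846865 had no overlap between the groups, but KO 2 at -2.921 barely cleared WT 2 at -2.922. Groups did not overlap in 9.82% of all 5644 same-gene pairs. Actin genes have closely similar coding sequences, and whether a probe also binds the RNA of another actin was not tested, since probe sequences were not used here. Against the Acta1 probe the brightest Actb probe shifted by -0.19 without overlap (exact permutation p = 0.1, the smallest possible). The margin was small, with KO 3 at -1.205 and WT 3 at -1.187.

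Cells other than muscle fibres hold much of the cytoplasmic actin and tropomyosin, and their markers are given beside Actb and Tpm4. Of 28 measured genes that work with cytoplasmic actin, 10 had a positive difference and 0 passed, with a median of -0.063 (-0.029 without WT 3). Their summed normalised intensity was 47379 to 49178 in WT and 45168 to 47836 in KO. In that list Myh10, a non-muscle myosin heavy chain, had 0.45 (limma adjusted p = 0.345) and Myl12a, a regulatory light chain, 0.43 (adjusted p = 0.461). Of 10 measured smooth muscle genes, Acta2 among them, 4 had a positive difference and the median was -0.075 (-0.044 without WT 3). In that list 1 gene, the regulatory light chain Myl9, fell by 1.42 (limma adjusted p = 0.0349). Synpo2, an actin-bundling protein, had 0.87 (adjusted p = 0.108). The summed intensity of that list was 18878 to 19308 in WT and 13068 to 14212 in KO, and Cnn1 was not among the tested probes. That sum includes the bright Acta2 probe, whose level averaged 13.74 over WT and 13.26 over KO (limma adjusted p = 0.237). Fibroblast markers had 1 positive difference of 9 and a median of -0.11, macrophage markers 0 of 9 and -0.086, endothelial markers 0 of 10 and -0.076, and adipocyte markers 0 of 6 and -0.60, with 0 passing in each. Without WT 3 the medians were -0.072, -0.0020, 0.0080 and -0.038, in the same order, with 1, 4, 6 and 3 positive differences. The adipocyte markers were high on WT 3 alone, and their median deviation was 0.028 on WT 1, -0.49 on WT 2 and -0.39 to -0.19 on the KO arrays. The part of these cells in the values of Actb and Tpm4 was not tested.

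Tpm1, the alpha tropomyosin of striated muscle, had 2 tested probes, both lower in KO without passing. ILMN_3007072 gave log2 values of 10.41, 10.30 and 10.50 in WT and 10.21, 10.17 and 10.29 in KO. All KO values were below all WT values, by a margin of less than 0.02 between KO 3 and WT 2. The difference was -0.18 (SE 0.10, limma adjusted p = 0.801) with a 95% interval of -0.42 to 0.05. ILMN_2518346 gave 8.66, 8.64 and 8.93 in WT and 8.66, 8.68 and 8.54 in KO, with overlap and a difference of -0.12. WT 3 was high in both probes, and without it the differences were -0.13 and -0.024. The remaining probe, ILMN_1237801, was detected on none of the 6 arrays, at 95.8 to 105 on the raw scale, and was not tested.

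Tpm2, the beta tropomyosin, had 3 probes with differences between 0.035 and 0.061. The brightest, ILMN_2482209, had raw intensities of 25160, 25507 and 24150 in WT and 26918, 24923 and 25466 in KO. The groups overlapped, with KO 1 the highest of the 6. Its difference was 0.046 (SE 0.09, limma adjusted p = 0.967) with a 95% interval of -0.17 to 0.26, and the raw means differed by 3.33%. ILMN_2487170 gave 11.18, 11.51 and 11.20 in WT and 11.44, 11.37 and 11.26 in KO. The dimmest probe, ILMN_2787172, varied most between animals, from 8.49 on WT 3 to 9.30 on KO 1, and its 95% interval was -0.47 to 0.54. On the raw scale its sign turned, at -0.012. Against the Tpm1 probe the bright Tpm2 probe shifted by 0.23 without overlap (exact permutation p = 0.1, the smallest possible). The margin was small, with KO 3 at 4.321 and WT 2 at 4.303.

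The largest difference among the 22 probes, 0.76, was that of a Tpm3 probe. Its gene has 2 start sites in the RefSeq table, 6870 bases apart, and tropomyosin genes are known to use an upstream start for long forms, including those of muscle, and an internal start for short cytoplasmic forms. Both windows are shown because the groups did not overlap in 5 of its 6 probes. They lie on the plus strand of GRCm38.p6 at chr3:90072401-90072700 for the upstream start and chr3:90079271-90079570 for the internal one, and neither holds a CArG box or TATAAA.
Tpm3 upstream: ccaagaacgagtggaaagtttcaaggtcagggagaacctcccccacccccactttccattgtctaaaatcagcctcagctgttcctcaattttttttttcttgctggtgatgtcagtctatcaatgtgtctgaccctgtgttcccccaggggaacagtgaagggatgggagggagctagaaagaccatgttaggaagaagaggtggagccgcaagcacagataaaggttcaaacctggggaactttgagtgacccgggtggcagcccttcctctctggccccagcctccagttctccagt
Tpm3 internal: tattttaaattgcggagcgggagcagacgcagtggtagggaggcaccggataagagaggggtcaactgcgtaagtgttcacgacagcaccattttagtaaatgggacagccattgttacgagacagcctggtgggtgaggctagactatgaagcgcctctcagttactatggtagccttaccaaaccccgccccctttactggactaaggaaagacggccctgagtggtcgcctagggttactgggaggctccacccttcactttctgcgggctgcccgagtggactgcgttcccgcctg
Which start feeds the RNA read by each probe is unknown here.

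Of the 6 Tpm3 probes, 5 had all KO arrays above all WT arrays and an unadjusted p under 0.05. The brightest, ILMN_2435584, had raw intensities of 3476, 4370 and 4499 in WT and 6053, 4913 and 6831 in KO. Normalised levels averaged 11.97 ± 0.21 for WT and 12.50 ± 0.18 for KO (SD, n = 3 each). This 1.44-fold difference of 0.52 (SE 0.15) had a limma adjusted p of 0.443. ILMN_2443164 had 2863, 3382 and 3827 in WT and 5022, 4304 and 6209 in KO on the raw scale. Its difference was 0.63 (SE 0.16, limma adjusted p = 0.375), or 1.55-fold, and the raw means differed by 54.3%. KO 3 was the highest and KO 2 the lowest KO array in both, and WT 1 the lowest of all.

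The other 3 of these probes, ILMN_2426967, ILMN_2426966 and ILMN_2426965, were dim, and all of them were detected on all 6 arrays. ILMN_2426967 had raw intensities of 189.6, 217.1 and 217.0 in WT and 268.4, 239.7 and 352.7 in KO, and differed by 0.76 (SE 0.18, limma adjusted p = 0.310). ILMN_2426966 gave 6.76, 6.84 and 7.03 in WT and 7.41, 7.05 and 7.77 in KO, and differed by 0.53 (SE 0.18, adjusted p = 0.587), or by 0.35 without KO 3. ILMN_2426965 gave 6.63, 6.63 and 6.85 in WT and 7.37, 7.13 and 7.72 in KO, and differed by 0.71 (SE 0.16, adjusted p = 0.306). Without background correction these were 0.48, 0.33 and 0.42, and on the raw scale 0.45, 0.30 and 0.39, where KO 2 at 212.9 fell below WT 3 at 231.2 in ILMN_2426966. The order of the KO arrays was the one seen in the bright probes.

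The sixth Tpm3 probe, ILMN_2444316, had raw intensities of 643.8, 663.3 and 709.6 in WT and 686.4, 605.2 and 745.9 in KO. The groups overlapped, and KO 2 was the lowest of the 6 arrays. Its difference was 0.071 (SE 0.10, limma adjusted p = 0.945), with a 95% interval of -0.17 to 0.31. Measured against the brightest Tpm3 probe on the same array it shifted by -0.45 (SE 0.13) with no overlap between the groups, at an unadjusted p of 0.00827 and a limma adjusted p of 0.999 over all 5644 same-gene pairs, of which 9.82% did not overlap. It correlated by 0.74 to 0.91 with the other Tpm3 probes over the 6 arrays, which correlated among themselves by 0.93 to 0.98. This probe and the 3 dim ones are annotated to the same RefSeq record, and the 2 bright ones to records of their own. In all, 0 of the 5644 pairs passed (limma), and 257 (4.55%) had an unadjusted p under 0.05.

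**Figure D2:**
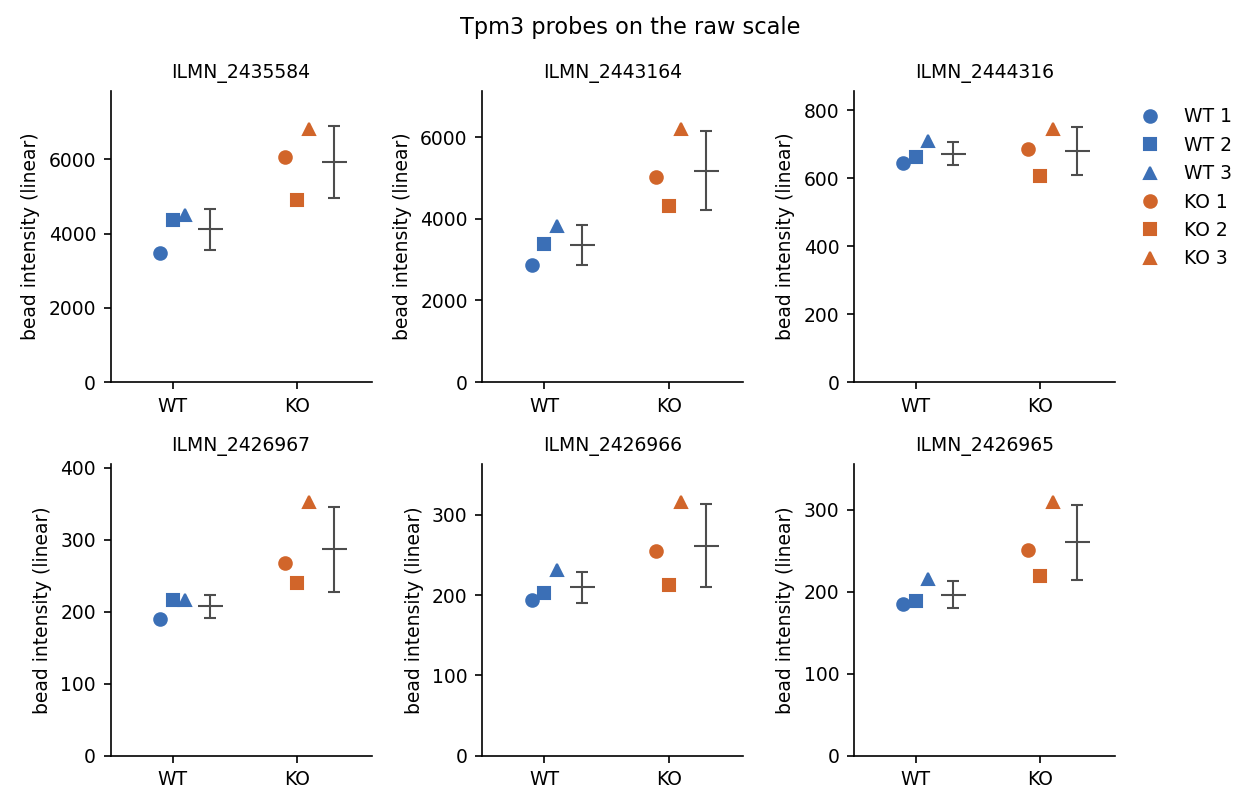
Each panel is 1 Tpm3 probe, with raw bead intensity on a linear axis from 0 and 1 point per array, WT in blue and KO in orange. Horizontal bars with whiskers give the mean and SD of 3 arrays. ILMN_2444316 has overlapping groups, and in the other probes KO 1 and KO 3 lie above every WT array.

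Within pairs of the same replicate number, taken here as littermates, the 5 probes were higher in KO in 3 of 3. The differences were 0.25 to 0.80 for the brightest and 0.50 to 0.87 for ILMN_2426965. KO higher in 3 of 3 pairs held for 6 of the 22 probes and for 17.1% of all tested probes, the sixth being the Tpm4 probe ILMN_1223539. Against the Tpm1 probe the brightest Tpm3 probe shifted by 0.71 and against the Tpm2 probe by 0.48, each without overlap (exact permutation p = 0.1, the smallest possible, and 0.12 adjusted over 6 gene pairs). The slow fibre list was chosen with earlier results of these data known, and its relation to Tpm3 was not tested. All 10 measured slow fibre genes other than Tpm3 had a positive difference, where 50.4% of all tested probes did. Their median was 0.58 (0.52 without WT 3). Among them 2 rose, Ankrd2, which binds titin, by 3.03 (limma adjusted p = 0.00404) and Csrp3, a LIM protein of the Z-disc, by 1.57 (adjusted p = 0.0349). The summed intensity of that list, in which bright probes weigh most, was 39055 to 52306 in WT and 67732 to 76011 in KO. Of 10 measured fast fibre genes 1, Myh1, rose by 1.49 in its brightest probe (limma adjusted p = 0.0297). Under some other processing a further Myh1 probe differed from that probe past the threshold. The median of the list was -0.054 (-0.10 without WT 3), with -0.76 for the calcium buffer Pvalb (adjusted p = 0.440).

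Tpm4, a tropomyosin of non-muscle cells and of the cytoskeleton, had 3 probes. The brightest, ILMN_2515363, had raw intensities of 3224, 3059 and 3277 in WT and 2895, 2670 and 2631 in KO. All KO arrays lay below all WT arrays. Its difference was -0.21 (SE 0.10, limma adjusted p = 0.740) with a 95% interval of -0.44 to 0.02, and the raw means differed by -14.3%. ILMN_2571616 gave 8.18, 7.95 and 8.15 in WT and 8.31, 8.07 and 7.78 in KO, with overlap and a difference of -0.041. ILMN_1223539 gave 7.12, 7.11 and 7.18 in WT and 7.15, 7.16 and 7.24 in KO, a difference of 0.043 that was -0.0021 on the raw scale. It shifted by 0.25 (SE 0.12, limma adjusted p = 0.999) against the brightest Tpm4 probe, without overlap between the groups, and correlated with it by -0.64. Against the Tpm1 probe the brightest Tpm4 probe shifted by -0.029, with overlap (exact permutation p = 1). Of the 6 gene pairs 5 had groups that did not overlap, as held for 13.9% of all pairs of genes measured by their brightest probe. The 5 pairs share the probes of Acta1, Tpm1, Tpm2 and Tpm3 and are not separate results.

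**Figure D3:**
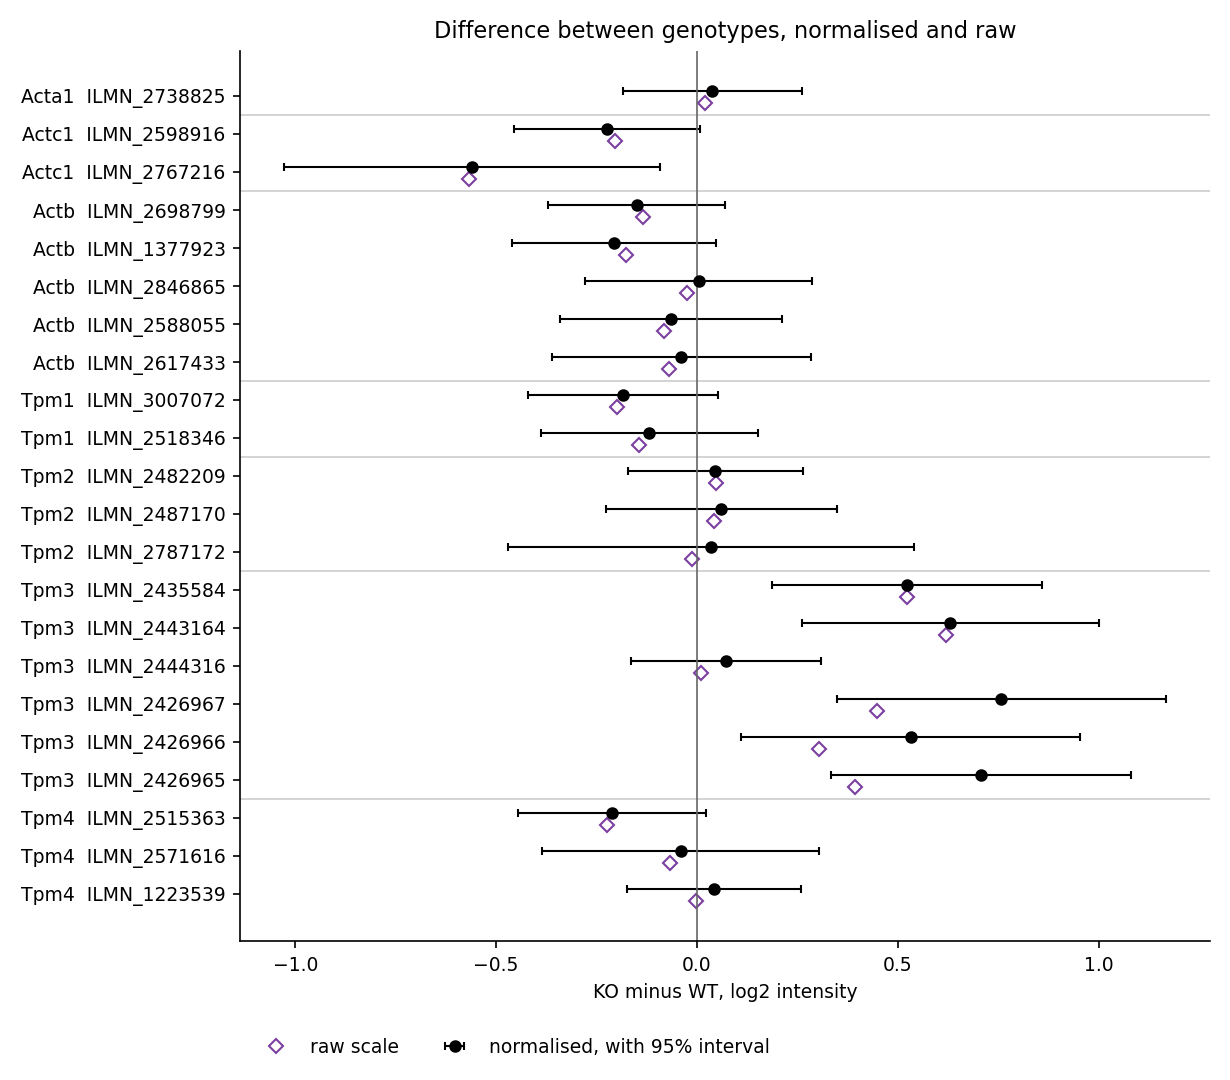
Each row is 1 tested probe, black points give KO minus WT on the log2 normalised scale with the 95% interval of the limma fit, and open diamonds give KO minus WT of the mean log2 raw intensity. Intervals of 6 probes, 5 of Tpm3 and the dimmer one of Actc1, leave out 0, before any adjustment for the number of probes. The diamonds lie close to the points except in the 3 dim Tpm3 probes.

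**Figure D4:**
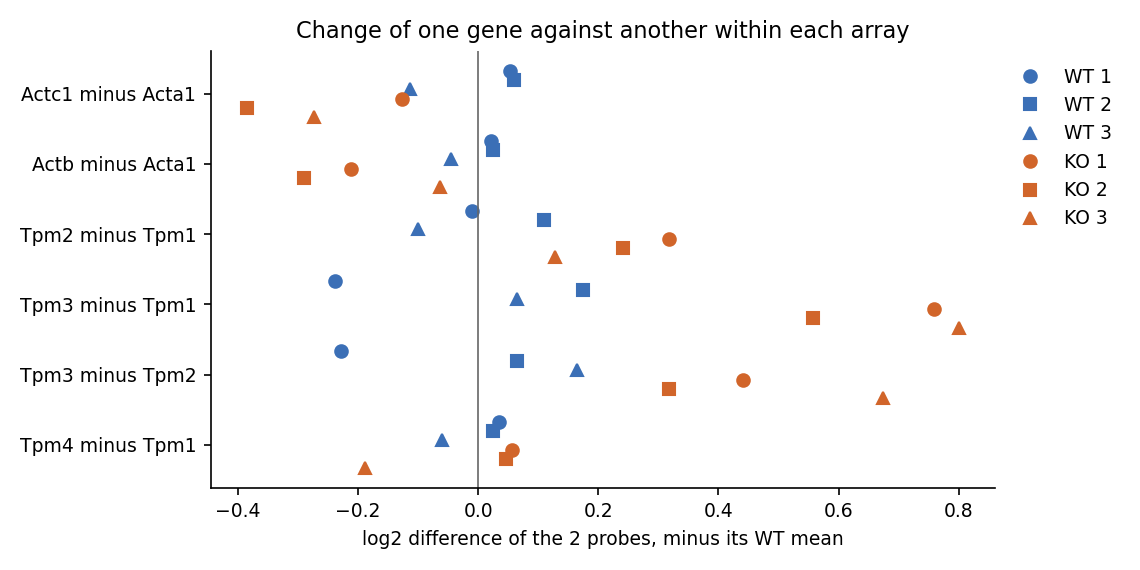
Each row is a pair of genes, and each point is 1 array, plotted as the log2 difference between the brightest probes of both genes minus its mean over the 3 WT arrays, with WT in blue and KO in orange. Groups overlap in Tpm4 minus Tpm1 and not in the other 5 pairs, which share probes.

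The standard error of the bead intensity was 2.24% to 6.23% of the intensity over the 22 probes and 6 arrays, from 21 to 139 beads. The coefficient of variation between the 3 animals of a group ran from 1.16% to 21.4%, the highest being the dimmer Actc1 probe in WT.

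Among partners of actin and tropomyosin in the thin filament, 21 of 26 listed genes were measured, 15 had a positive difference and 1 rose, with a median of 0.18 (0.13 without WT 3). Tnnt1, Tnni1 and Tnnc1 of this list are also in the slow fibre list. The gene that rose is named next. That gene was Xirp2, an actin-binding protein of striated muscle, at 1.24 (limma adjusted p = 0.0349). Nrap, a scaffold for nascent thin filaments, had 0.81 in its brightest probe (adjusted p = 0.0527), from which a further Nrap probe differed under some other processing. Of 13 measured genes for the folding of actin and myosin, 10 had a positive difference and 0 passed, with a median of 0.11 (0.089 without WT 3). Cct5, a subunit of the chaperonin that folds actin, had 0.40 (limma adjusted p = 0.711) and Smyd1, a muscle methyltransferase, 0.32 (adjusted p = 0.731). Both probes were dim, with WT and KO means of 4.77 and 5.17 for Cct5 and 5.53 and 5.85 for Smyd1. The summed intensity was 105986 to 116650 in WT and 118461 to 122770 in KO for the thin filament partners, and 19076 to 20189 and 20103 to 20625 for the folding genes.

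The genes whose values followed each member most closely over the 6 arrays were found by Pearson correlation with its brightest probe, as a description of these arrays among 10493 genes. They were Slc6a4 and Gas2 for Acta1, Vav3 and Rps29 for Actc1, Map7d1 and Ccnd1 for Actb, Hpgd and Cbln1 for Tpm1, Wrap53 and Rpl4 for Tpm2, Nfatc2 and Kri1 for Tpm3, and Fndc10 and Cntn2 for Tpm4. Their correlations ran from 0.97 for Gas2 to 0.99 for Hpgd. Such values are high by the choice itself, as the closest genes were picked from 10493 over 6 arrays. None of these genes passed the test between the genotypes, with limma adjusted p from 0.381 for Ccnd1 to 0.957 for Rpl4.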

How the data were processed

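The authors deposited a table with the mean bead intensity, the count of beads, the standard error of the bead intensity (an other measure of the same beads) and a detection p-value for each probe and array, per the file headers. The values are linear and not background-subtracted. A second deposited table holds 1 normalised intensity per probe and array, and its normalisation method is unknown here. RNA was taken with Trizol and labelled with Cy3 through an Ambion MessageAmp kit, per the labels' protocols. Of 45281 probes 34885 had 1 gene symbol, 18 several and 10378 none.

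Intensities were normalised with neqc of limma 3.58.1 in R 4.3.3 (normexp background from the detection p, offset of 16, quantile, log2). Probes with a detection p under 0.05 on at least 3 of 6 arrays entered lmFit and eBayes, with two-sided p adjusted by Benjamini-Hochberg over 19099 probes and a threshold of 0.05. Pairs of probes of 1 gene were fitted likewise, as the log2 difference from the gene's brightest probe, over 5644 pairs. The fits were also run on simulated data with shifts larger than any member difference, so that detection of shifts of the size seen here was not examined. Gene pairs were compared by exact permutation over arrays. The planned pair of Actg1 and Actb was not run, as Actg1 had no annotated probe. A list gene is represented by its brightest tested probe. Summed intensities add these probes on the linear normalised scale, so that bright probes weigh most. Named genes were all member probes, Klhl40, the 2 genes most correlated with each member and up to 2 per list by p. The members and lists were chosen with earlier results of these data known.

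The replicate numbers of the sample titles were taken as littermate pairs, which the titles do not state. Arrays of the same number deviated together (correlations of 0.31, 0.21 and 0.45), but these are the same values to which the pairs were then applied. WT 2 correlated slightly more with KO 1 (0.23). Promoter windows come from the RefSeq tables for GRCm38.p6, matched by symbol for 7 of the 8 genes. Alternatives changed background correction, normalisation, filter, the source of the values, 1 probe per gene, the littermate block and single arrays. Precision is limited by 3 arrays per group.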

Additional observations from a re-analysis of the deposited data

How the results depend on the processing

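Under every alternative run, 0 actin or tropomyosin probes passed, with the replicate block, without each array and with 1 probe per gene included. The lowest limma adjusted p of any of them was 0.114, for ILMN_2426965 with the replicate block. Of the 22 probes, 17 kept the sign of their difference under all 10 alternatives that can change it. The other 5, ILMN_2846865 and ILMN_2617433 of Actb, ILMN_2787172 of Tpm2, and ILMN_2571616 and ILMN_1223539 of Tpm4, had differences of at most 0.043 in size. Over all probes, those lower in KO numbered 10 without background correction and with the series matrix values, and 13 with the replicate block, against 6. Without a detection filter 0 were higher and 0 lower. Leaving out 1 array gave 2 to 17 higher and 1 to 10 lower. Same-gene probe pairs past the threshold numbered 2 without background correction, on the raw scale and with the series matrix values, against 0, and these were pairs of Myh1 and Nrap. There a further probe of each gene shifted unlike its brightest probe, whose difference is the one given above. The shift of Actc1 against Acta1 was -0.43 with the mean of all detected probes, against -0.26, as the dimmer Actc1 probe then enters. The cause of the other changes was not tested. Actin and tropomyosin probes with all KO above all WT numbered 4 to 5 under other scalings and 7 without WT 3 (12.9% of all probes there), and those below 5 to 6 and 7 (13.5%), a comparison added after the data were seen, as were the gene list medians without WT 3 and the share over all gene pairs. Scan slides are not given in the files used here, and the slide block was not run. The probe ILMN_1237801 has only background signal.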

Other observations

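Acta2, the smooth muscle actin and a gene of the smooth muscle list, is singled out here after its values were seen. It had 4 tested probes, and in each all KO arrays lay below all WT arrays, which held for 6.07% of all tested probes. The 4 probes read 1 gene in the same mice and are not separate results. The brightest, ILMN_2693895, gave 13.77, 13.69 and 13.75 in WT and 13.25, 13.33 and 13.19 in KO, and differed by -0.48 (SE 0.10, limma adjusted p = 0.237). The others had differences of -0.47, -0.57 and -0.50, with limma adjusted p of 0.570, 0.292 and 0.510. None of the 4 passed.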
